A study of Mus musculus with 19 samples.

Results

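Class D is a set of 262 hypocretin (Hcrt) neurons from the mouse lateral hypothalamus in which 5 genes, Gpc3, Thbs2, Lgals3, Cd44 and Fbxl21, stood higher on a common score than 3 other panels of 5 genes. The class was cut from 1068 Hcrt cells, of which it made up 24.5% (exact binomial 95% interval 21.98 to 27.23). Those cells came from 1612 wells labelled as lateral hypothalamic area (LHA), of which 1534 had at least 1000 genes detected. A well counted as an Hcrt cell when Hcrt gave at least 1% of its unique molecular identifiers (UMIs, the tags that mark single RNA molecules). In these cells the log-scaled count of each panel gene was turned into a z-score, the 5 z-scores of a panel were averaged, and a cell went to the panel with the highest average. Panel A held Met, Sema3e, Pde3a, Chst8 and Lmo2 and took 283 cells. Panel B held Pth2, Hspb1, S100a11, Synm and Cbln2 and took 258 cells. Panel C held Prkch, Cxcl14, Car8, Col18a1 and Ednrb and took 265 cells. Every cell was given to 1 of the panels and scored against these same cells, so the rule itself shapes the share of each class. The share is therefore no measure of how common a cell type is, and its interval leaves out the spread between plates.

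The study picked cells by hand from the LHA of 7 male mice, 6 to 8 weeks old, of genotype Agrp-IRES-Cre x Ai9, and all 19 plates belonged to 1 untreated group. Ai9 is a Cre-dependent tdTomato reporter, so the axons of AGRP neurons were red and marked the borders of the dissected area, and only cells without fluorescence were picked. Wells were read with Smart-SCRB, a plate-based chemistry in which every well carries a barcode and every molecule a UMI. No label used here ties a plate to a mouse, so plates were taken as the replicates. Several plates must share a mouse, which can make the p-values given here too low. The 384 well barcodes recur by design on 4 to 5 of the 1824 wells each and do not mark shared cells.

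Hcrt neurons sit in the lateral hypothalamus and perifornical area, release the orexin peptides cut from the Hcrt precursor, and excite arousal centres throughout the brain. They also make dynorphin (from Pdyn) and release glutamate, which the transporter encoded by Slc17a6 loads into vesicles, and they express the synaptic pentraxin Nptx2 and the LIM homeobox factor Lhx9. Of the panel D genes, Gpc3 encodes a membrane-anchored heparan sulfate proteoglycan that binds Wnt and hedgehog ligands, Thbs2 a secreted thrombospondin, Lgals3 a galectin that binds beta-galactoside sugars, and Cd44 the main hyaluronan receptor. Fbxl21 encodes an F-box protein of ubiquitin ligases that acts on cryptochrome in the circadian clock.

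Gpc3 lies on chromosome X at 52272426 to 52613950 on the minus strand of GRCm38, and Thbs2 on chromosome 17 at 14665500 to 14694235 on the minus strand. Lgals3 lies on chromosome 14 at 47367751 to 47386160 on the plus strand. Cd44 lies on chromosome 2 at 102811141 to 102901665 on the minus strand, and Fbxl21 on chromosome 13 at 56522472 to 56537898 on the plus strand. All 5 are annotated as protein-coding. The start-site windows of Thbs2 and Fbxl21 are printed because these genes had the highest levels of the panel in class D even when left out of the score. Each window runs from 250 bases before to 50 bases after the RefSeq start (GRCm38.p6), 5′ to 3′ on the strand of the gene, at chr17:14694213-14694512 (minus) for Thbs2 and chr13:56522222-56522521 (plus) for Fbxl21, and capitals mark motif letters found on either strand.
Thbs2: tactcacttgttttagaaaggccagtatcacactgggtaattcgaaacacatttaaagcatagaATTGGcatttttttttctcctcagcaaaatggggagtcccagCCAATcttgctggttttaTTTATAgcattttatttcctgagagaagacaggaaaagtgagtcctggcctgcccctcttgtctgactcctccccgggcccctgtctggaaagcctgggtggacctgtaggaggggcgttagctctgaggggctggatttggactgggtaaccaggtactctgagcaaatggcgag
Fbxl21: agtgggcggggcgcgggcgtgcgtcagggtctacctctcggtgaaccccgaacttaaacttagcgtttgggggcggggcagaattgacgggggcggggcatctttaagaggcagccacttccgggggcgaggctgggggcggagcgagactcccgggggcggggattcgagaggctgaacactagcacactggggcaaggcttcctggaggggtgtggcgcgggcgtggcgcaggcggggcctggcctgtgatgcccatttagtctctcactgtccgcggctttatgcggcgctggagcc
The motifs searched were the E-box CACGTG, the D-box TTANGTAA, the CRE TGACGTCA, the AP-1 site TGANTCA, the TATA box TATAAA and the CCAAT box CCAAT, on both strands, and no match shown overlaps another. The Thbs2 window held 3 matches, to CCAAT on each strand and to TATAAA on the minus strand, and the Fbxl21 window held 0. Among all 32851 windows of 300 bases in the table, 37.4% held CCAAT, 13.6% TATAAA, 7.15% CACGTG, 7.81% TGANTCA, 2.32% TTANGTAA and 1.79% TGACGTCA. Of the 5 panel D genes, 3 (Gpc3, Thbs2 and Lgals3) held CCAAT and 1 (Thbs2) held TATAAA in their windows; none of the other 4 motifs was in any of the 5 windows.

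Class D cells were present on every plate, from 4 cells on plate 8 to 30 on plate 1, with a median of 12. Their share of the Hcrt cells was lowest on plate 8 (12.9%) and highest on plate 1 (40.5%), with a mean of 24.1% ± 6.91 (SD, n = 19 plates). Together the members held 13644744 UMIs, and single members had 6644 to 263078 UMIs with a median of 47501.5. The median was 40673 in class A, 59436.5 in class B and 37306 in class C.

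**Figure D1:**
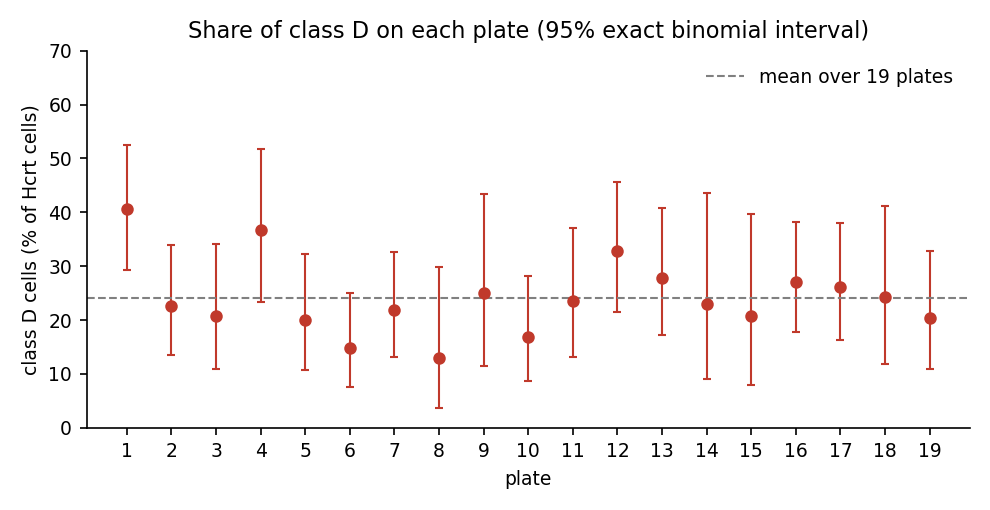
Share of class D among the Hcrt cells of each plate (vertical axis, percent) against the plate number (horizontal axis); points are plates, bars the exact 95% binomial interval and the dashed line the mean over plates. Shares run from 12.9% on plate 8 to 40.5% on plate 1, and plates 1, 4 and 12 hold the 3 highest. The rule shapes these shares, so they do not measure how common a cell type is.

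The members did not form a set apart from the other Hcrt cells on these scores. The median lead of panel D over the next panel was 0.442 in units of mean z, 117 members led by at least 0.5, and 44 by at least 1. In 142 members the second panel also scored above 0, and in 19 the panel D score itself was at or below 0. Panel B was second in 121 members, panel A in 99 and panel C in 42, while panel D was second in 308 cells of the other classes. The 10 members nearest the border led by 0.00024 to 0.0319, and the 10 cells nearest it outside had leads of -0.0418 to -0.00332. Both sets had a median of 2 panel D genes with a UMI. After thinning every cell to 18000 UMIs, 205 of the 251 members deep enough stayed in class D (81.7%), 22 moved to B, 17 to A and 7 to C.

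**Figure D2:**
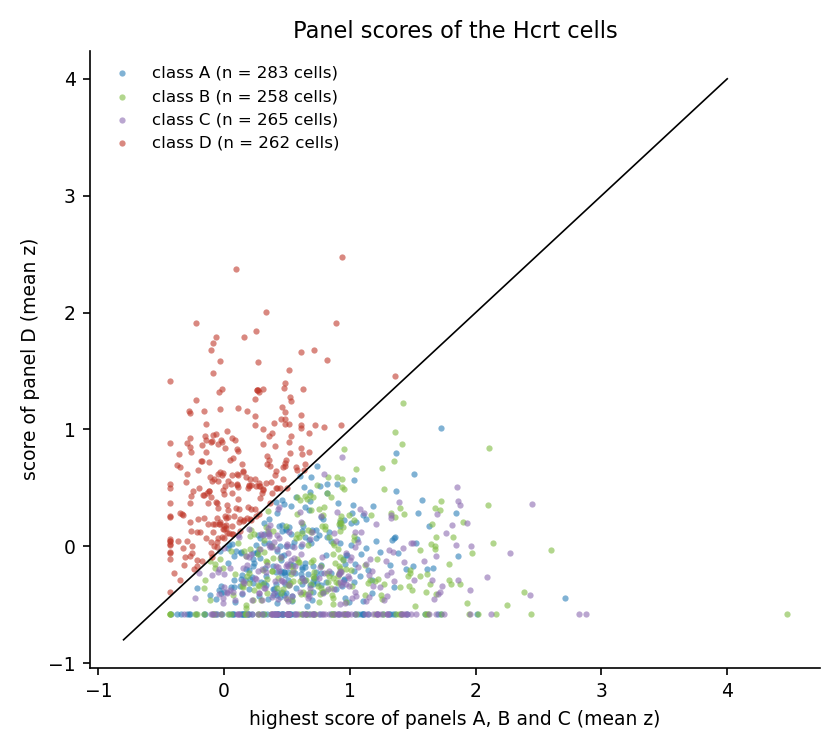
Score of panel D (vertical axis, mean z) against the highest score of panels A, B and C (horizontal axis, mean z) for each of the 1068 Hcrt cells, coloured by class; the line marks equal scores. The 262 class D cells lie above the line and run into the other classes along it with no gap, and 145 of them lead by under 0.5.

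The panel D genes chose the members, so their levels are given as a description with no test. In summed class D counts, Gpc3 stood at 20.6 counts per 1000000 counts (CPM) on the lowest plate, 45.9 at the median and 91.6 on the highest. The per-plate mean of classes A, B and C ran from 1.91 to 18.6 CPM with a median of 9.55, so class D was higher on 19 of 19 plates. Thbs2 ran from 23.8 to 148 CPM with a median of 82.2 in class D and from 0.739 to 31.3 with a median of 16.1 in the others, again higher on 19 of 19 plates. The lowest class D plate for Gpc3 lay above the highest plate of that mean, while the ranges for Thbs2 overlapped. The single classes were not apart for Gpc3: class A reached 53.3 CPM and class C 22.7. Class A stood above class D on plate 5 (26.5 against 24.4 CPM) and plate 13 (40.8 against 20.6).

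Lgals3 ran from 15.6 to 248 CPM with a median of 61.9 in class D and from 4.29 to 26.6 in the others, and was higher on 18 of 19 plates. The highest value was that of plate 15, and 1 cell held 104 of the 1009 Lgals3 UMIs of the class (10.3%). Cd44 ran from 12.5 to 87.3 CPM with a median of 50.2, against 5.87 to 27.5 in the others, and was higher on 18 of 19 plates. Fbxl21 ran from 27.2 to 96.0 CPM with a median of 68.1, against 10.03 to 45.0, and was higher on 19 of 19 plates. The ranges of Lgals3, Cd44 and Fbxl21 overlapped between class D and the others.

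**Figure D3:**
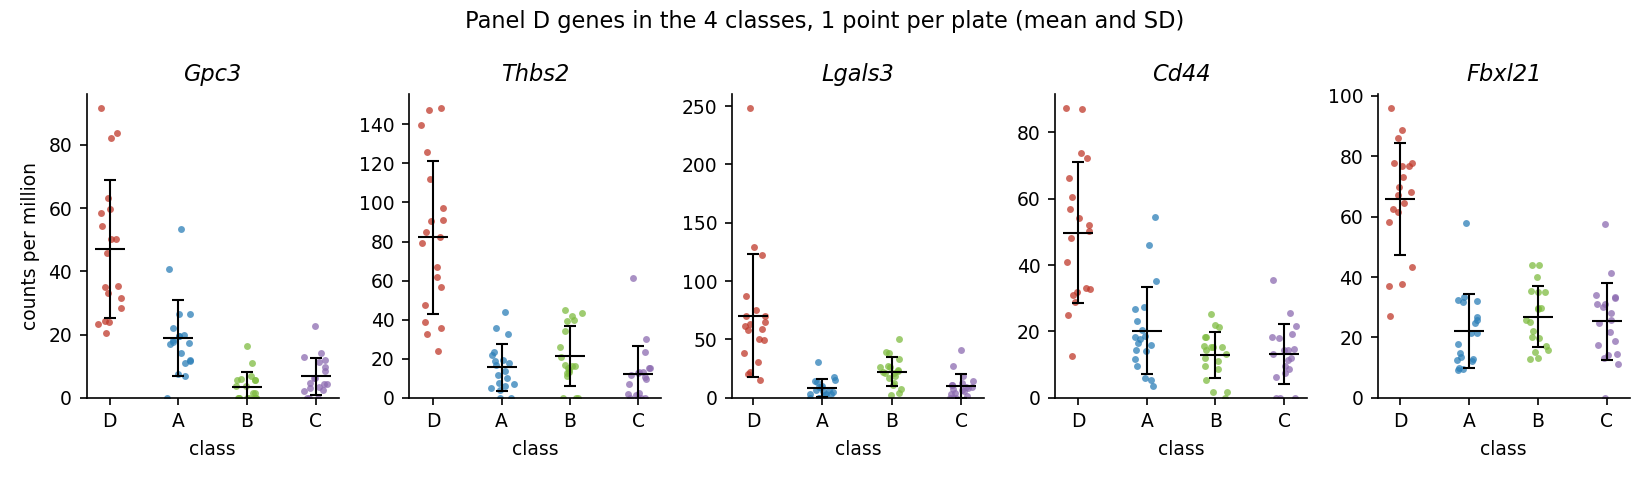
Level of each panel D gene in the summed counts of the 4 classes (vertical axes, CPM; horizontal axes, class), 1 point per plate, with the mean and SD over 19 plates in black. Class D holds the highest means because these genes set the classes; the class A points of Gpc3 and the class B points of Lgals3 and Thbs2 reach into the class D range.

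Few members carried the whole panel. A UMI of all 5 genes was found in 19 members, of 4 genes in 61, of 3 in 88, of 2 in 70 and of 1 in 24. Fbxl21 was detected in 71.4% of members, Cd44 in 62.6%, Gpc3 in 53.4%, Thbs2 in 53.1% and Lgals3 in 52.3%. At an equal depth of 18000 UMIs (251 members, 11 shallower ones left out) the shares were 56.6%, 49.4%, 42.6%, 43.4% and 41.4% in the same order of genes. At that depth the shares in class A were 21.8% for Fbxl21, 21.8% for Cd44, 17.6% for Gpc3, 14.1% for Thbs2 and 8.02% for Lgals3 (262 cells, 21 left out). In class B they were 31.2%, 18.6%, 4.45%, 21.5% and 24.3% (247 cells, 11 left out), and in class C 27.2%, 11.8%, 9.35%, 8.54% and 11.8% (246 cells, 19 left out). Gpc3 and Thbs2, the pair in the working name of these cells, were detected together in 66 of 262 members.

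The levels of the panel D genes are also given by the panel that came second, as a description. The scores of the rule formed these subsets, and each value is 1 sum over all plates with no spread. As 1 cell held 104 of the 1009 Lgals3 UMIs of the class, the genes cannot be ranked by how much they varied. Gpc3 stood at 58.5 CPM in the members whose second panel was A, 42.1 where it was C and 35.5 where it was B. Lgals3 stood at 104 CPM in the members whose second panel was B, 47.0 where it was C and 41.1 where it was A. Thbs2 stood at 79.8, 66.6 and 83.3 CPM for second panels B, C and A, Cd44 at 56.1, 49.97 and 49.7, and Fbxl21 at 63.6, 65.7 and 65.9.

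When a gene was left out of the panel and the classes were rebuilt from the rest, 4 of the 5 genes, all but Gpc3, stood above each other class by mean level. For Lgals3 this held against B on 11 of 19 plates only. The panel was drawn up from these same cells, so a left-out gene was likely to follow the others. The values are therefore a description and no independent support for the class. Fbxl21 was 53.7 ± 17.4 CPM in class D (SD, n = 19 plates) against 28.2 ± 14.1 in A, 29.6 ± 10.6 in B and 27.0 ± 13.7 in C, and was higher on 18, 17 and 18 of 19 plates. Thbs2 was 56.9 ± 36.7 CPM against 30.9 ± 30.9, 28.9 ± 17.1 and 16.3 ± 19.8, and Cd44 was 38.4 ± 16.96 against 24.9 ± 14.4, 18.02 ± 7.72 and 16.5 ± 10.7. Thbs2 was higher in class D than in A, B and C on 15, 15 and 18 plates, and Cd44 on 16, 19 and 17.

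Gpc3 and Lgals3 were shared with another class. Left out of the panel, Gpc3 was 28.9 ± 16.5 CPM in class D and 31.0 ± 18.4 in class A, and class D was higher on 9 of 19 plates; it was 6.25 ± 5.88 in B and 10.7 ± 7.66 in C. Lgals3 was 48.0 ± 36.8 CPM in class D and 35.4 ± 23.0 in class B, with class D higher on 11 of 19 plates, against 12.4 ± 7.72 in A and 11.1 ± 10.1 in C. The name of a Gpc3 and Thbs2 type therefore does not hold for Gpc3 against class A, and the cells are called class D here.

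The panel D genes were also counted in the wells that are not Hcrt cells. In 104 wells labelled as spike-in (ERCC) or empty, holding 128521 UMIs, Gpc3, Thbs2 and Fbxl21 had 0 UMIs and Lgals3 and Cd44 1 each, at a depth too low to set a level of stray RNA. In 466 LHA wells of picked cells that passed the gene filter and not the Hcrt threshold, Gpc3 stood at 15.98 CPM, Lgals3 at 36.0, Fbxl21 at 7.28, Cd44 at 4.32 and Thbs2 at 3.09. In those wells, with a median of 27452.5 UMIs, 10.9% held a Gpc3 UMI and 4.72% a Thbs2 UMI. Lgals3 was abundant at 1952 CPM in 68 wells labelled qRNA, whose content is not given in the sources used here. After seeing the data, 20 genes were therefore chosen by the ratio of their level in those wells to that in the Hcrt cells. Their summed level was 16.4 CPM in class D (4.54 to 50.2 over plates), 12.03 in A, 19.5 in B and 17.5 in C. It was 31507 CPM in the qRNA wells. The choice itself favoured genes that are low in the Hcrt cells, so this gap is no measure of stray RNA in the classes.

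The members carried the genes that mark Hcrt neurons. Their Pdyn level was 953 CPM by mean over plates, with Nptx2 at 326, Lhx9 at 141, Slc17a6 at 117, Rfx4, a winged-helix transcription factor, at 162, and Scg2, a granin of dense-core vesicles, at 32190. Hcrt itself, which set the gate, gave a median of 13.7% of the UMIs of a member and at least 5.04%. Of the 262 members, 257 passed a gate for neurons (at least 5 of 8 pan-neuronal genes, at most 20% mitochondrial UMIs, and fewer UMIs of every glial or vascular list than of the pan-neuronal list).

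Outside the panels, class D was set against the mean of classes A, B and C in counts summed per plate and class, with the plate as a block. Of 7694 genes with enough counts, the 20 panel genes and Hcrt left out, 281 passed edgeR's quasi-likelihood test at a Benjamini-Hochberg adjusted p under 0.05 (3.65% of those tested), 153 higher in class D (1.99%) and 128 lower (1.66%). Against class A alone 5.11% of genes passed, 227 higher (2.95%) and 166 lower (2.16%). Against class B 5.15% passed, 195 higher (2.53%) and 201 lower (2.61%), and against class C 8.19% passed, 323 higher (4.2%) and 307 lower (3.99%). Without the plate block 68 genes were higher and 69 lower than in the 3 classes together, and at equal depth 45 and 41, with fewer genes tested. The comparisons share the class D sums. The panels were drawn up from these same cells, so a gene that varies along with a panel was likely to pass, and the tests describe how far the sums differed over plates.

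Of these genes, 6 met the criteria for naming in the higher direction (0.078% of those tested) and 9 in the lower (0.117%): at least 2-fold on the log2 scale of the fit, at least 20 CPM on the higher side and the same direction on at least 80% of plates. The higher ones encode a neurotrophin (Bdnf), a bZIP transcription factor (Hlf), a lipid-droplet protein (Cidea), a receptor-type tyrosine phosphatase (Ptprz1), a ubiquitin-conjugating enzyme (Ube2l6) and a PBX-interacting protein (Pbxip1). The lower ones encode 2 EF-hand calcium sensors or buffers (Calb2 and Hpca), a copine (Cpne6), a small relative of the calmodulin-binding Pcp4 (Pcp4l1), synaptic and axonal surface proteins (Igsf21, Tenm2 and the transmembrane collagen Col25a1), a phosphoprotein of cAMP signalling (Arpp21) and a Slit-Robo GTPase-activating protein (Srgap3). With A, B and C summed as 1 class, Cidea fell to 0.68 and Igsf21 to -2.36. With members leading by at least 0.5, Igsf21 was -3.54, Cpne6 -2.76, Hpca -1.71 and Srgap3 -1.70. All 6 higher genes passed against A and against C, and none of the 6 passed against B in either direction.

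Bdnf, the ligand of the TrkB receptor, ran from 46.2 to 462 CPM in class D with a median of 218, and the mean of the others from 58.4 to 151 with a median of 112. Class D was higher on 17 of 19 plates, all but plates 8 and 14, and the ranges overlapped. The log2 fold change was 1.46 ± 0.17 (SE; edgeR adjusted p = 5.85e-09). Against the single classes it was 1.38 over A (adjusted p = 8.25e-06), 2.86 over C (1.28e-13) and 0.12 over B (0.858).

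Cidea, known from lipid storage in brown fat, ran from 29.5 to 178 CPM with a median of 64.5 in class D and had a median of 39.4 in the others, higher on 17 of 19 plates. Its log2 fold change was 1.33 ± 0.13 (edgeR adjusted p = 1.98e-13), and 1 cell held 10.8% of its class D UMIs. It was 2.00 above class A and 2.32 above class C on the log2 scale, and -0.32 against class B (edgeR adjusted p = 0.292). Mean levels were 74.2 CPM in class D, 89.9 in B, 18.2 in A and 14.6 in C, so the gene was high in D and B and low in A and C.

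Hlf, of the PAR bZIP family whose members bind D-box sites in clock output genes, ran from 3.11 to 51.6 CPM with a median of 29.2 in class D against a median of 12.4. It was higher on 16 of 19 plates with a log2 fold change of 1.45 ± 0.24 (edgeR adjusted p = 1.27e-05), and the difference from class B was 0.55 (edgeR adjusted p = 0.354). Ptprz1, a receptor for pleiotrophin, ran from 3.69 to 68.8 CPM against a median of 14.2 in the others and was higher on 18 of 19 plates. Its log2 fold change was 1.28 ± 0.23 (edgeR adjusted p = 4.51e-05), with 0.85 against class B (0.0648). Pbxip1 was higher by 1.02 ± 0.16 and Ube2l6, the conjugating enzyme for the ubiquitin-like ISG15, by 1.04 ± 0.19, on 17 and 16 of 19 plates, and they differed from class B by -0.01 and -0.06.

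Calb2, which encodes the calcium buffer calretinin, ran from 67.5 to 260 CPM in class D with a median of 129, and the mean of the others ran from 274 to 626 with a median of 398. The ranges did not overlap, and class D was lower on 19 of 19 plates with a log2 fold change of -1.06 ± 0.13 (edgeR adjusted p = 1.26e-08). The difference changed sign between classes. It was -1.74 against A (edgeR adjusted p = 1.32e-13) and -2.23 against C (2.57e-18), and 0.78 against B (5.05e-04), so class D lay above B and below A and C.

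Tenm2, a teneurin of the synaptic surface, ran from 19.3 to 78.3 CPM in class D with a median of 48.4 against a median of 111 and was lower on 19 of 19 plates, by -1.04 ± 0.12 (edgeR adjusted p = 4.10e-10). It was lower than in A by -0.93 and than in C by -1.90, and differed from B by -0.28 (edgeR adjusted p = 0.350). Igsf21, an adhesion molecule that binds neurexin, was found in 7.25% of members and had a median of 2.09 CPM in class D against 20.1 in the others. Its log2 fold change was -1.69 ± 0.32, with -3.63 against C, -1.85 against A and 0.41 against B (edgeR adjusted p = 0.704). Cpne6, Arpp21, Col25a1 and Hpca were lower by -1.74 ± 0.35, -1.62 ± 0.24, -1.26 ± 0.25 and -1.02 ± 0.23, each on 18 of 19 plates. These 4 passed against A and C, and none passed against B.

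Pcp4l1 was the 1 gene of this size that also stood lower than each of the 3 other classes. It ran from 14.9 to 86.6 CPM in class D with a median of 45.7, against a median of 131 in the others, and was lower on 19 of 19 plates (log2 fold change -1.52 ± 0.18, edgeR adjusted p = 9.21e-09). It was lower by -0.93 against A, -1.35 against B and -2.29 against C (edgeR adjusted p = 2.48e-03, 3.15e-06 and 3.13e-13). Srgap3 was lower by -1.03 ± 0.26 on 16 of 19 plates, and passed against B (-1.43) and C (-1.16) and not against A (-0.50, edgeR adjusted p = 0.465).

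**Figure D4:**
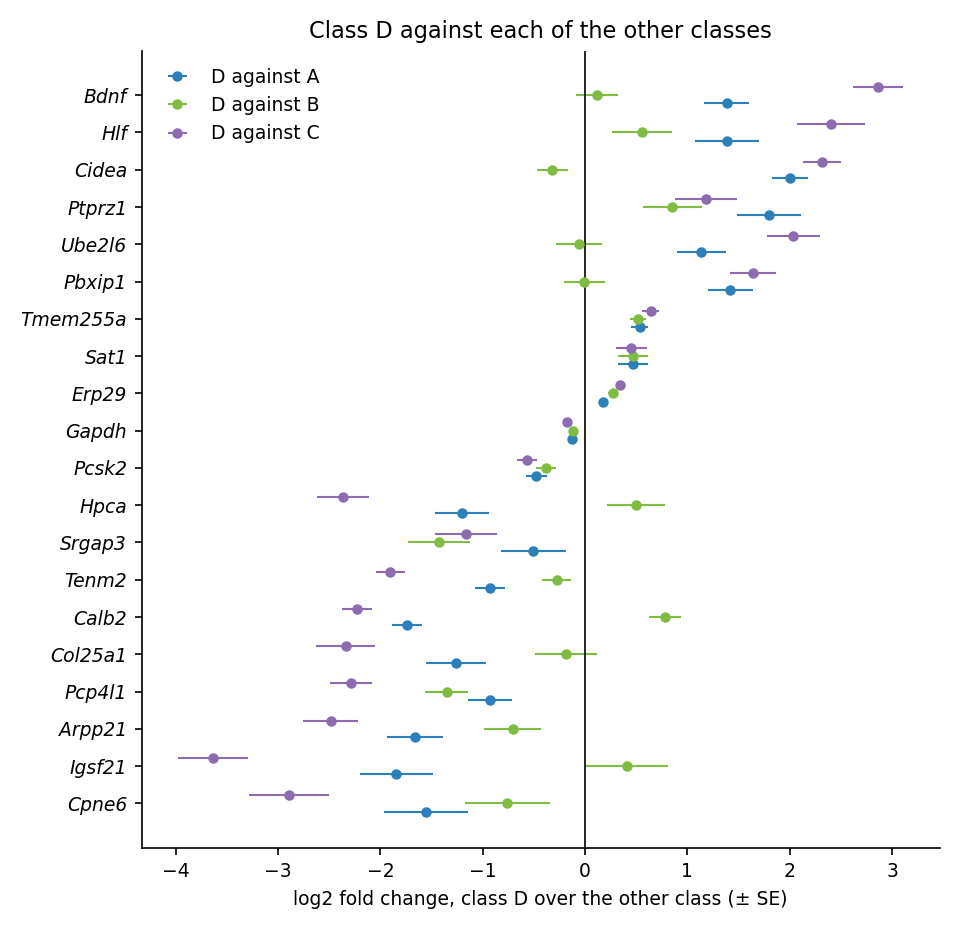
Log2 fold change of class D over class A, B or C (horizontal axis; colour marks the class, bars the SE) for the 15 genes that met the naming criteria and the 5 further genes that differed from each class (vertical axis). The fold changes against B lie near 0 for Bdnf, Pbxip1 and Ube2l6 where those against A and C lie above 1, and Calb2 lies on opposite sides of 0.

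Few genes set class D apart from each other class one by one, and of these Pcp4l1 alone reached 2-fold. Of 7694 genes, 3 were higher than in each of A, B and C (0.039%) and 3 lower (0.039%). The higher ones were Tmem255a, which encodes a membrane protein, Sat1, which acetylates spermidine and spermine, and Erp29, a chaperone of the endoplasmic reticulum. Tmem255a ran from 125 to 269 CPM with a median of 209 against a median of 136 and was higher on 18 of 19 plates, by 0.56 ± 0.07 (edgeR adjusted p = 2.19e-10). It was 0.53, 0.52 and 0.64 above A, B and C. Erp29 was higher on 19 of 19 plates, by 0.26 ± 0.04, and Sat1 on 13 of 19, by 0.46 ± 0.12 (edgeR adjusted p = 8.35e-03). Sat1 did not pass with cells thinned to equal depth (0.37, edgeR adjusted p = 0.204).

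Besides Pcp4l1 the lower ones were Pcsk2, which encodes prohormone convertase 2, and the glycolytic enzyme Gapdh. Pcsk2 ran from 62.1 to 236 CPM with a median of 120 against 181 and was lower on 17 of 19 plates, by -0.48 ± 0.08 (edgeR adjusted p = 2.56e-05). Gapdh was lower by -0.14 ± 0.03 on 17 of 19 plates and did not pass without the plate block (edgeR adjusted p = 0.420). Exons of another gene lie on the opposite strand over Bdnf, Arpp21, Hpca, Srgap3, Erp29, Gapdh, Pcsk2 and Tmem255a; whether the counting used strand is not given in the sources used here, so reads of these pairs may not be told apart.

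**Figure D5:**
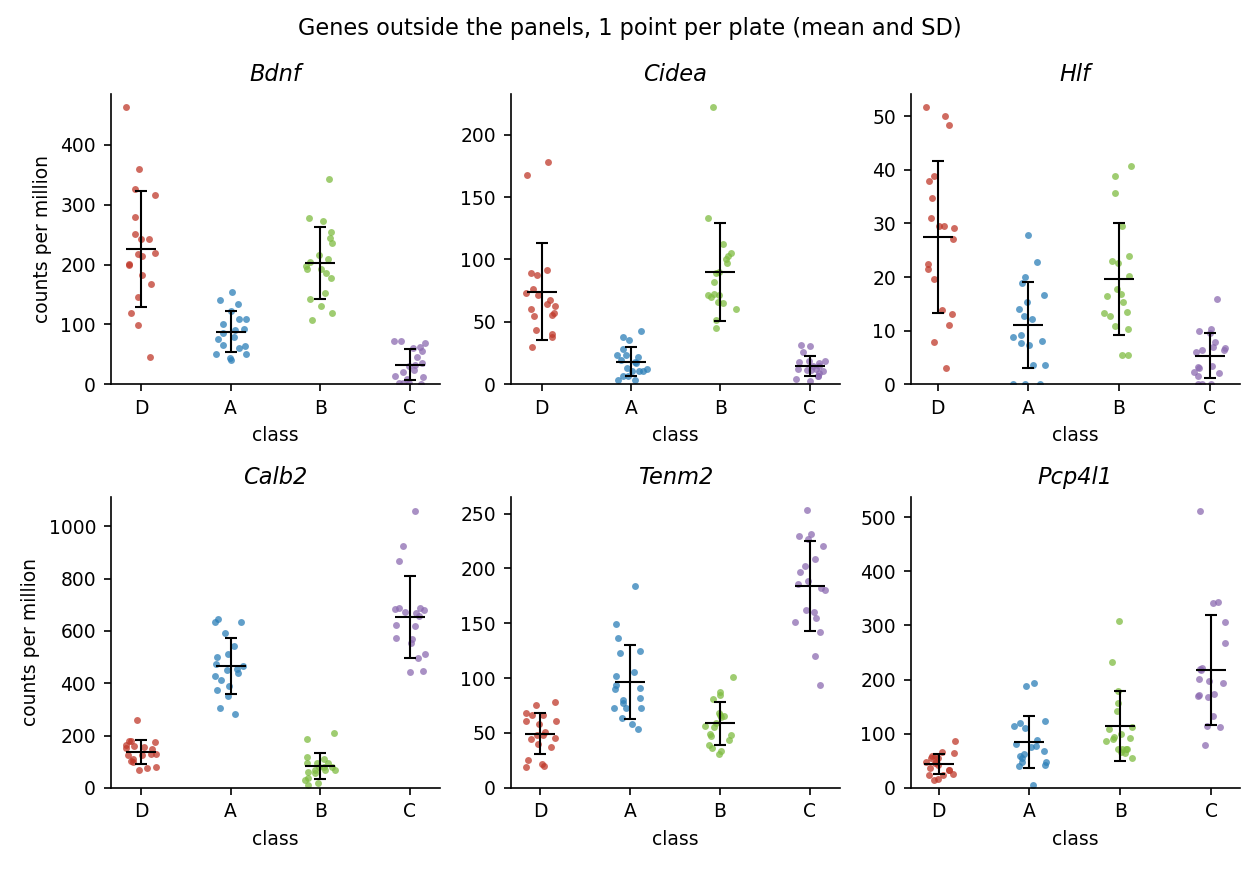
Level of 6 genes outside the panels in the summed counts of the 4 classes (vertical axes, CPM; horizontal axes, class), 1 point per plate, with the mean and SD over 19 plates in black. Bdnf, Cidea and Hlf are high in D and B, Calb2 and Tenm2 are low in D and B, and Pcp4l1 is lowest in D.

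The lists of related genes that follow are given by counts and by their median log2 fold change of class D over A, B and C, which was 0.00 over all genes tested. Over all genes 1.99% were higher and 1.66% lower (3.65% in either direction). In a list with few genes tested, a count of 1 is already a larger share than this, so a single call does not set a list apart. Larger counts, such as that of the calcium-binding list, also lie above the share over all genes. The lists were chosen with earlier results of these data known and none was tested as a set, so no count speaks for a list as a whole. Of 10 Hcrt identity genes, 9 could be tested besides the gate gene, 2 were higher, 1 was lower and the median was -0.02. Vgf, a secreted granin-like precursor, ran from 483 to 1208 CPM with a median of 861 against 647 and was higher on 17 of 19 plates, by 0.52 ± 0.08 (edgeR adjusted p = 2.18e-05). Nptx2 ran from 202 to 416 CPM with a median of 348 against 256, also higher on 17 of 19 plates, by 0.38 ± 0.06 (edgeR adjusted p = 5.63e-06). Neither gene passed against class B: the means in D and B were 852 and 804 CPM for Vgf (edgeR adjusted p = 0.822). For Nptx2 they were 326 and 332 CPM (edgeR adjusted p = 0.900). Pdyn ran from 641 to 1490 CPM with a median of 912 against 1144 and was lower on 17 of 19 plates, by -0.24 ± 0.05 (edgeR adjusted p = 1.25e-03), and did not pass at equal depth (-0.20, edgeR adjusted p = 0.0610). The other 6 did not pass against the 3 classes together: Lhx9 at -0.07, Rfx4 at -0.05, Scg2 at 0.03, Igfbp3 at -0.02, Slc17a6 at -0.19 and Cbln1 at 0.10. Some passed edgeR's test against single classes. Slc17a6 was lower than in A (-0.48), and Cbln1 (0.45) and Scg2 (0.23) were higher than in B. Igfbp3 was higher than in B (0.55) and lower than in C (-0.38).

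Among 38 neuropeptide precursors 12 passed the filter on low counts, of which 2 were higher and 1, Pdyn, was lower (median -0.09). Penk, the enkephalin precursor, ran from 45.0 to 248 CPM with a median of 141 against 92.4 and was higher on 17 of 19 plates, by 0.82 ± 0.18 (edgeR adjusted p = 2.07e-03). Penk stood at 141 CPM by mean in class D and 174 in A, against 50.9 in B and 64.4 in C, so D and A were high. Nucb2, which holds the nesfatin sequence, was higher by 0.38 ± 0.08 and did not pass against class B (0.03, edgeR adjusted p = 0.940). Nts, the neurotensin precursor, did not pass against the 3 classes together; against class B it was -3.84 (31.0 against 353 CPM by mean over plates), and against A and C it did not pass.

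Of 16 genes for granins and peptide processing, 15 were tested, 2 were higher and 3 lower (median -0.06). The convertases split: Pcsk1 was higher by 0.23 ± 0.05 on 17 of 19 plates (edgeR adjusted p = 1.70e-03), and Pcsk2 was lower, as given above. Pcsk1 did not pass against class B (0.02, edgeR adjusted p = 0.926). Vgf was the other higher gene, and Chga and Scg5, both of dense-core granules, were lower by -0.20 ± 0.05 and -0.15 ± 0.04. Of 20 genes for transmitter synthesis and transport 11 were tested, 0 were higher and 1 lower: Ddc, which makes dopamine and serotonin from their precursors, by -0.59 ± 0.18 (edgeR adjusted p = 0.0468).

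Single receptor genes passed in most of the receptor lists. Of 47 neuropeptide receptors 10 were tested and 1 passed: the vasopressin receptor Avpr1a ran from 45.5 to 145 CPM with a median of 66.8 against 49.2 and was higher on 19 of 19 plates, by 0.68 ± 0.13 (edgeR adjusted p = 1.76e-04). Its mean level was 72.9 CPM in class D and 73.1 in class B (-0.05, edgeR adjusted p = 0.929), against 50.3 in A and 24.4 in C. Of 36 monoamine and acetylcholine receptors 5 were tested and 1 passed: the serotonin receptor Htr1a ran from 1.13 to 33.8 CPM with a median of 15.0 against 29.4 and was lower on 18 of 19 plates, by -0.91 ± 0.20 (edgeR adjusted p = 1.20e-03). Of 24 glutamate receptor genes 16 were tested (median -0.03). The kainate subunit Grik1 was higher by 0.85 ± 0.24, with a mean of 19.9 CPM in class D between 32.6 in B and 4.16 in A and 9.88 in C, and the metabotropic receptors Grm5 and Grm7 were lower by -0.78 ± 0.23 and -0.59 ± 0.13. Of 22 receptor genes for GABA and glycine 12 were tested; the glycine subunit Glra2 was higher by 0.69 ± 0.21 and the GABA subunit Gabrg1 lower by -0.92 ± 0.24. Of 36 hormone and growth factor receptors 12 were tested and 0 passed, with Ntrk2, the receptor for the Bdnf protein, passing in the higher direction against class B alone.

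Of 57 potassium channel genes 24 were tested, 0 were higher and 2 lower, with a median of -0.18. These were the delayed rectifier Kcnb2 (-0.81 ± 0.23) and the Kv4 partner Kcnip1 (-0.65 ± 0.16), each lower on 17 of 19 plates. Of 49 sodium, calcium, HCN and TRP channel genes 32 were tested and 1 passed, the auxiliary subunit Cacng3, higher by 0.31 ± 0.08 (edgeR adjusted p = 8.20e-03).

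Of 29 genes for calcium-binding proteins 19 were tested, 2 were higher and 5 lower, with a median of 0.05. Calb1, which encodes the buffer calbindin, ran from 646 to 1161 CPM with a median of 874 against 1340 and was lower on 19 of 19 plates, by -0.46 ± 0.04 (edgeR adjusted p = 9.89e-14). Calb2 and Hpca are given above, and Ncald and Pcp4 were lower by -0.15 ± 0.03 and -0.20 ± 0.05. Necab2 and S100a10 were higher by 0.35 ± 0.09 and 0.23 ± 0.06, and S100a10 was lower than in class B alone (-0.34, edgeR adjusted p = 8.79e-04). Calb1 also changed sign between classes, with -0.69 against A, -0.94 against C and 0.24 against B.

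For the lists built around the panel D genes, calls against A, B and C together are given beside the number tested in each list. Over all genes 3.65% passed. Of 31 glypican and heparan sulfate genes 15 were tested and 0 passed (median 0.14), though Sdc2 and Sulf2 passed against B and Hs3st5 against C. Of 36 thrombospondins and their binding partners 7 were tested and 0 passed (median 0.02). Single classes differed in opposite directions. Cd36 was -1.57 against A, 1.80 against B and -2.70 against C, and Itgb1 was 0.49, -0.58 and 0.51, and all of these passed edgeR's test. Cd47 passed against B alone (0.19). Of 11 galectin genes 4 were tested and 0 passed (median -0.08), though Lgals3bp passed against B (0.42). Of 41 genes for hyaluronan and matrix links 12 were tested and 1, Msn, which links Cd44 to the actin cortex, passed. Msn ran from 20.9 to 90.3 CPM with a median of 50.2 against 38.2. It was higher on 17 of 19 plates, by 0.82 ± 0.18 (edgeR adjusted p = 1.30e-03). Among the single classes it passed against B alone (1.56), and not against A (0.43, edgeR adjusted p = 0.335) or C (0.47, edgeR adjusted p = 0.224). Of 54 Wnt and hedgehog genes 6 were tested. Rspo1, a Wnt agonist, was higher by 0.39 ± 0.12 and passed among the single classes against C alone. Dkk3, a member of the dickkopf family, was lower by -0.87 ± 0.15 on 18 of 19 plates. Dkk3 passed against A and C and not against B, with means of 61.4 CPM in class D and 51.5 in B. Of 30 circadian clock genes 17 were tested and only Hlf passed (median 0.04). Of 37 collagens and laminins 3 were tested and Col25a1 passed.

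Of 93 axon guidance and adhesion genes 43 were tested, 4 were higher and 3 lower (median -0.03). The neural contactin Cntn4 was higher by 1.21 ± 0.29 at a mean of 15.0 CPM, and the protocadherin Pcdh8 by 0.83 ± 0.23. The postsynaptic Lrrtm3 was higher by 0.61 ± 0.15 and the presynaptic Nrxn3 by 0.49 ± 0.14. Cntn4 had a higher mean in class B (18.5 CPM), and Pcdh8 stood at 47.0 CPM in class D and 61.6 in A. Among the single classes Nrxn3 passed against B alone. Lower were the netrin receptor Unc5d (-1.38 ± 0.36), Tenm2 and the protocadherin Pcdh9 (-0.37 ± 0.10). Of 96 transcription factors 27 were tested, 4 were higher (Tcf4 0.78 ± 0.20, Bcl11a 0.78 ± 0.19, Tshz2 0.52 ± 0.09 and Peg3 0.15 ± 0.05) and 3 lower (Sox2 -1.31 ± 0.38, Lhx2 -0.68 ± 0.18 and Myt1l -0.50 ± 0.09). Sox2 and Myt1l, a stem-cell and a neuronal factor, were lower than the mean of A, B and C on 19 of 19 plates. Both passed against A and C, and neither passed against B. Sox2 stood at 4.23 CPM in class D and 2.82 in B, against 21.8 in A and 18.1 in C. Bcl11a passed among the single classes against B alone.

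Of 26 immediate-early genes, which respond within minutes to firing or to handling of the cells, 14 were tested, 2 were higher and 3 lower (median -0.22). Nr4a1 had a median of 3.75 CPM in class D against 13.3 and was lower on 18 of 19 plates, by -1.67 ± 0.32 (edgeR adjusted p = 1.59e-04). Fos was lower by -0.34 ± 0.09 and Egr1 by -0.60 ± 0.17, each on 18 of 19 plates, while the 2 higher genes were Bdnf and Nptx2. Against class A 2 of the 14 were higher and 1 lower, against class C 2 were higher and 7 lower (median -0.72), and against class B 0 passed, where 5.15% of all genes did. Of 25 genes known from axon injury 14 were tested and 1 passed, the intermediate filament Vim. It ran from 38.9 to 221 CPM with a median of 86.6 against 60.0. It was higher on 19 of 19 plates, by 0.73 ± 0.13 (edgeR adjusted p = 7.60e-05), and did not pass against class B (0.38, edgeR adjusted p = 0.223). Of 28 genes of endoplasmic reticulum stress 23 were tested and 0 passed (median 0.09).

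Markers of other cell types were summed in the members, and their part in the results was not tested. The 8 astrocyte genes summed to 82.1 CPM in class D (55.1 to 124 over plates), against 126 in A, 93.1 in B and 137 in C. Of them 1 was tested and passed, the aldolase Aldoc, which also gave nearly all of the sum, at -0.51 ± 0.10. The 9 microglial genes summed to 31.1 CPM in class D (10.4 to 49.7), against 41.4, 40.0 and 38.5, with Tmem119 at 0. The 7 endothelial genes summed to 5.04 CPM (0 to 18.1) with Tek and Slco1a4 at 0, the 9 mural and fibroblast genes to 1.63 (0 to 8.69) with Tagln and Vtn at 0, and the 6 ependymal genes to 1.29 (0 to 7.54).

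The 8 oligodendrocyte genes had a mean of 357 and a median of 42.1 CPM in class D (14.4 to 3655 over plates), against means of 417, 491 and 235 and medians of 36.3, 46.7 and 45.3 in A, B and C, and 1 member held 39.1% of their UMIs. The 7 genes of oligodendrocyte precursors had a median of 4.54 CPM (0 to 103), against 10.2, 12.98 and 10.7. The 5 genes of the neighbouring melanin-concentrating hormone neurons had a mean of 255 and a median of 189 CPM (6.21 to 884), against medians of 234, 203 and 214; 2 were tested and 0 passed, while Pmch was lower than in class B taken alone. The 6 GABAergic genes had a median of 50.6 CPM (2.89 to 117), against 32.7, 59.3 and 20.2, with Dlx6 at 0. Gad2 stood at 26.2 CPM in class D, 7.65 in A, 43.5 in B and 9.54 in C, and Gad1 at 23.0, 30.3, 13.9 and 26.7. The 2 genes of AGRP neurons summed to 5.32 CPM in class D (0 to 18.1), against 2.27, 8.33 and 2.53, with Npy at 0.

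None of 5 measures of the cells passed between the members and the other Hcrt cells of the same plates, by a two-sided sign-flip permutation test (100000 permutations) of plate medians with adjustment over the 5. UMIs per cell were 55474 ± 23251 in class D and 51547 ± 19779 in the others (SD, n = 19 plates; difference 3926 ± 8654, adjusted permutation p = 0.165). Genes per cell at 18000 UMIs differed by 10.6 ± 92.8 (adjusted permutation p = 0.728). The Hcrt share of UMIs was 13.8% ± 1.83 against 13.5% ± 1.88 (adjusted permutation p = 0.290), and the mitochondrial share 2.45% ± 0.410 against 2.43% ± 0.286 (adjusted permutation p = 0.728). UMIs per spike-in UMI, which track the RNA content of a cell, were 36.2 ± 7.24 against 34.2 ± 5.90 and higher on 14 of 19 plates (permutation p = 0.013, adjusted 0.0650). That last difference passed when only members leading by at least 0.5 were kept (4.29, adjusted permutation p = 0.00443) and under the neuron gate (2.22, adjusted permutation p = 0.0458), and without plate 1, 14 or 18 (2.22, 2.47 and 2.31, adjusted permutation p = 0.0495, 0.0082 and 0.0353). The difference in UMIs per cell passed without plate 14 (4948, adjusted permutation p = 0.0391).

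The single classes gave further genes beside the named ones. Against class B, the members were higher in the opioid receptor Oprk1 (1.47) and the serotonin receptor Htr2c (1.25), which were lower than in class A (-0.74 and -1.14) and class C (-1.44 and -1.08). All 6 of these differences passed edgeR's test, and the mean level of class D lay between B and the pair of A and C for both genes. For Htr2c the means were 34.9 CPM in class D, 13.9 in B, 77.3 in A and 73.7 in C. Th, which makes dopamine precursors, was higher than in class A by 2.03 (28.4 against 6.83 CPM) and did not pass against B or C. Gad2 was higher than in A by 1.90 and in C by 1.80 and did not pass against B.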

How the data were processed

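Smart-SCRB libraries of single cells on 19 plates were sequenced to a stated depth of 135025 ± 38401 reads per cell (SD). The authors deposited whole-number counts per gene and well, made with bcl2fastq 2.20, cutadapt 2.1.0, STAR and STARsolo 2.7.5c on GRCm38, per the submitters' processing notes. The strand setting and the collapsing of UMIs are not given in the sources used here, and the counts are called UMIs because read 1 carried one. The deposited sheet of wells gives plate, kind of well, genes detected and what percent of its counts fell on spike-ins.

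The members and all gene lists were chosen with earlier results of these data known, and the panels came from these cells, so no test here is an independent check. Classes were scored on log1p(count per 10000), and counts were summed per plate and class (at least 3 cells each). Sums were fitted with edgeR 4.0.16 (R 4.3.3; TMM, filterByExpr, robust quasi-likelihood, plate as block), with Benjamini-Hochberg adjustment over all genes fitted and a threshold of 0.05. The plate block is physical, since the 4 sums of a plate come from 1 pooled library. CPM levels are counts per 1000000 counts of a sum, given by plate or as means over plates. The standard error of a log2 fold change was taken from the F statistic. Named genes had an adjusted p under 0.05, a log2 change of at least 1, at least 20 CPM on the higher side and 1 direction on at least 80% of plates. Up to 3 genes of each list were to be named by size, and further called members were named after their values were seen, as were the genes compared between single classes. On simulated data 92.8% of 2-fold and 100% of 4-fold changes were recovered in this comparison over 7548 genes. Doublets were not called, since cells were picked by hand. Alternatives were DESeq2 1.42.0, other filters, members or depths, and leaving out each plate. Intervals cover counting error only.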

Additional observations from a re-analysis of the deposited data

Results flagged for a closer look

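Wells not labelled as LHA cells carried some of the same genes. Hcrt gave 3784 UMIs in the wells labelled as spike-in or empty and 174 UMIs in the wells with no label. In the wells labelled qRNA, whose content is not given in the sources used here, Hcrt gave 3803 UMIs (2939 CPM). Lgals3 gave 2526 UMIs there, Cd44 152 and Thbs2 82, while Gpc3 and Fbxl21 gave 0. These wells enter none of the comparisons, and the part of their RNA in the class D levels was not tested.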

How the results depend on the processing

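For class D against A, B and C, counts of called genes kept within 1.5 times of the values given under several settings. These were DESeq2, no filter on low counts, the neuron gate and Hcrt at 5% of counts. Of the 281 genes called, 281 were also called under DESeq2, 264 under the neuron gate, 250 with Hcrt at 5% and 188 with no filter. The genes in common were 135 without the replicate block, 128 with members leading by at least 0.5 and 75 with thinning. Without the replicate block, 68 genes were higher and 69 lower against A, B and C, 104 and 104 against A, 107 lower against B and 207 higher against C. With members leading by at least 0.5 (6105 genes tested) 99 were higher against A, B and C, 132 against A, 125 against B with 98 lower, and 207 against C. With cells thinned to equal depth (4487 genes tested) 45 were higher and 41 lower against A, B and C, 80 and 81 against A, 84 and 61 against B, and 154 and 158 against C. Fewer genes were tested in the latter pair of settings.

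Leaving out each plate in turn gave 123 to 158 genes higher and 101 to 144 lower against A, B and C. It gave 191 to 229 and 142 to 193 against A, 167 to 203 and 167 to 205 against B, and 274 to 347 and 278 to 339 against C. Of the cell measures, UMIs per cell ranged from 3283 to 4948, genes from 0.444 to 19.3, the Hcrt share from 0.199 to 0.407, the mitochondrial share from -0.0200 to 0.0462 and UMIs per spike-in UMI from 1.78 to 2.47. With members leading by at least 0.5 the differences were -2.25 genes, -0.225 in Hcrt percent, -0.0995 in mitochondrial percent and 4.29 UMIs per spike-in UMI, and under the neuron gate the last was 2.22. Thinning gave -0.0331 in Hcrt percent. Genes that had not passed changed sign: Igfbp3 ranged from -0.0815 to 0.0289 with each plate left out, Lhx9 moved to 0.10 with thinning, and Scg2 to -0.0388 with at least 3 panel genes, -0.00891 with thinning and -0.00855 with Hcrt at 5%. Some named genes fell under the 2-fold size with A, B and C summed as 1 class: Bdnf to 0.90, Pbxip1 to 0.70, Cidea to 0.68 and Ube2l6 to 0.62. The causes were not tested. Gapdh lost its call without the block, and Sat1 and Pdyn with thinning.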
